A study of Mus musculus with 6 samples.

Results

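A set of 10 genes that neurons are known to switch on after their axons are damaged was followed in hippocampal RNA from mice injected with shRNA against L-DL, the longer form of the RNA-binding protein hnRNP D-like, or with control shRNA. The genes were chosen by name as Atf3, Jun, Gap43, Sprr1a, Ecel1, Gal, Tubb6, Socs3, Klf6 and Hspb1, and each of the 10 symbols matched 1 Ensembl gene among the 52550 genes of the count table. Both groups came from male C57BL/6 J mice, 8 weeks old when an adeno-associated virus (AAV) was injected into CA1 on both sides. For the 3 control libraries the virus carried control shRNA, and for the 3 L-DL KD libraries it carried 4 shRNA sequences against L-DL in tandem, each behind an H1 promoter, which is active in most cell types. A CamkIIα promoter drove only the green fluorescent marker that shows the injected neurons, and the control virus was given at the higher titre. The labels call the controls wild type, and they give the L-DL KD samples as a knockdown in one field and as hnRNP DL-/- in another. The time from injection to RNA is not given in the sources used here.

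Gene counts summed to between 16052529 and 17913064 reads per library. Levels are given as CPM, counts scaled to the library total by TMM, and a gene was tested where at least 3 libraries held at least 10 reads. Hnrnpdl, the targeted gene, was at 176, 184 and 171 CPM in the controls and at 217, 150 and 173 CPM in the libraries labelled L-DL KD (log2 fold change 0.03, standard error 0.12, edgeR adjusted p = 0.898). Its count sums all isoforms and the groups overlapped, so the treated mice are named by their label throughout. Markers of choroid plexus, a tissue that lies beside the hippocampus, ranged from 0.0141 to 2.30 times the control mean, highest in L-DL KD replicate 1 and control replicate 3. The sources used here do not say whether each replicate was a separate mouse, so p-values measure the spread between these 6 libraries, which may be technical.

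A damaged axon signals back to its cell body through stress kinases that end on Jun, and Jun and Atf3 are transcription factors of the AP-1 and ATF families that pair with each other and switch on further genes. Among those genes are Gap43, a growth cone protein, Sprr1a, a small proline-rich protein that promotes neurite outgrowth, the neuropeptide galanin (Gal), the membrane endopeptidase Ecel1, the β-tubulin Tubb6 and the small heat shock protein Hspb1. Socs3 dampens cytokine signals that run through the gp130 receptor and STAT3, and thereby restrains axon regrowth, whereas the zinc finger factor Klf6 favours it. Several of these genes, among them Jun, Socs3, Klf6 and Hspb1, are also known from microglia, astrocytes or vessels, so whole tissue does not show which cells a read came from.

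Of the 10 genes, Hspb1, Gal, Socs3, Tubb6 and Jun rose in the libraries labelled L-DL KD, while Atf3, Klf6, Gap43 and Ecel1 did not pass the test and Sprr1a was too low to be tested. The rises ran from 1.49-fold for Jun to 4.66-fold for Hspb1 among the genes with at least 10 reads in every library. A rise was called for 15.6% of all 17621 tested genes at an adjusted p under 0.05 and a fall for 15.0%, which together make 30.5%. Of the 8 injury genes with at least 10 reads in every library, 4 rose and 0 fell. Their median log2 fold change was 0.46, beside 0.01 over all tested genes. Gal passed the filter only through the group in which it was high, so it is left out of these counts. The 3 libraries of each group lay fully apart for Hspb1, Socs3, Tubb6 and Jun, all higher with the L-DL KD label, and for 47.2% of all tested genes, with 23.8% higher and 23.4% lower. Hspb1 and Socs3 rose at least 2-fold, as 4.37% of tested genes did. Without L-DL KD replicate 1 and control replicate 3, the choroid-high libraries, as those highest in choroid plexus markers are called here, the number of injury genes called was 6, with Gal counted and Klf6 added.

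**Figure D1:**
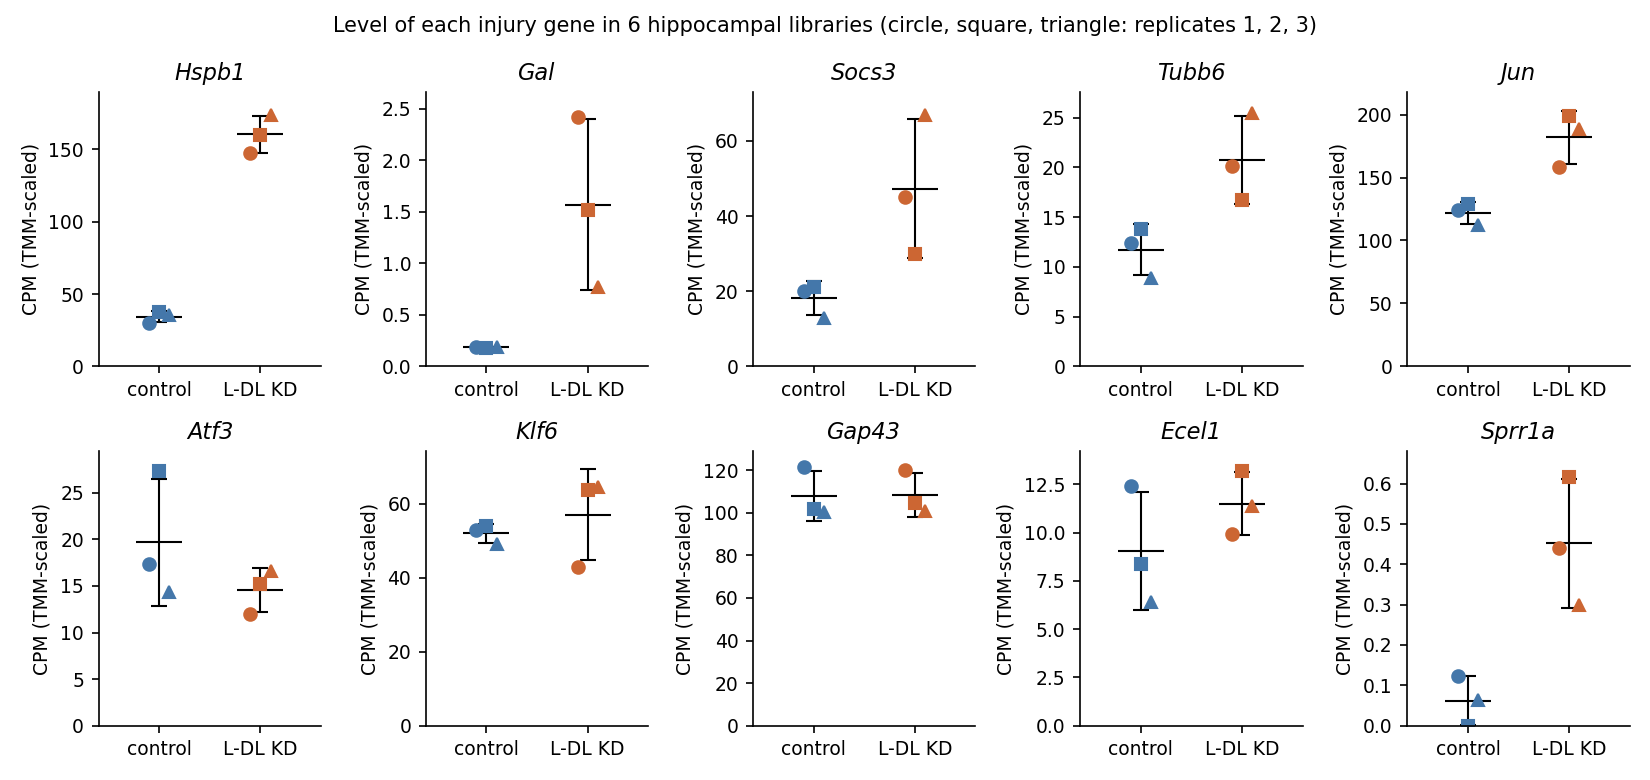
Level of each of the 10 genes in CPM (vertical axes, from 0) in the 3 control libraries (blue) and the 3 libraries labelled L-DL KD (orange), with the group mean and SD in black. The groups lie apart for the 5 genes of the upper row and for the barely detected Sprr1a, and they overlap for Atf3, Klf6, Gap43 and Ecel1.

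The clearest separation was that of Hspb1 (ENSMUSG00000004951, GRCm38 chromosome 5 from 135887919 to 135889563), which encodes HSP27, a chaperone that protects injured neurons and is also made by reactive glia and vessels. It stood at 30.3, 37.3 and 35.6 CPM in the controls and at 148, 160 and 173 CPM in the libraries labelled L-DL KD. Even the lowest of the latter lay far above the highest control. Means were 34.4 ± 3.68 CPM (SD, n = 3) and 160 ± 12.9 CPM (SD, n = 3), a log2 fold change of 2.22 (standard error 0.10, 95% interval 1.99 to 2.46, edgeR adjusted p = 6.45e-05). By p-value it took place 5 among the 17621 tested genes. Its spread within groups was also small, with a coefficient of variation of 10.7% in the controls and 8.07% in the libraries labelled L-DL KD.

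Galanin (ENSMUSG00000024907, chromosome 19 from 3409915 to 3414544) was near the limit of detection in every control and was read in each library labelled L-DL KD. Its counts were 3, 3 and 3 in the controls and 44, 27 and 13 in the libraries labelled L-DL KD, or 0.185, 0.177 and 0.191 CPM against 2.42, 1.51 and 0.775 CPM. Scaled for depth, the summed counts of 9 and 84 give a ratio of 8.66, with a 95% counting interval from 4.35 to 19.6 that leaves out the spread between libraries (exact binomial). edgeR gave it a log2 fold change of 3.05 (standard error 0.57, adjusted p = 0.00511), which rests on few reads and on a filter that this gene met only in one group. The order within the labelled group, highest in replicate 1 and lowest in replicate 3, was also that of the choroid plexus markers, and their part in the galanin reads was not tested. Replicates 2 and 3, which held 27 and 13 galanin reads, had these markers at 0.0512 and 0.0141 times the control mean. Control replicates 1, 2 and 3, each with 3 galanin reads, had them at 0.760, 0.194 and 2.05 times that mean.

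Socs3 (ENSMUSG00000053113, chromosome 11 from 117966079 to 117970047), the feedback inhibitor of gp130 signals, had 20.2, 21.2 and 12.9 CPM in the controls and 45.0, 29.9 and 66.8 CPM in the libraries labelled L-DL KD. No overlap was seen between the groups, although the labelled libraries varied widely among themselves, with a coefficient of variation of 39.2%. The log2 fold change was 1.38 (standard error 0.30, 95% interval 0.70 to 2.07, edgeR adjusted p = 0.0100), a 2.61-fold rise.

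Tubb6 (ENSMUSG00000001473, chromosome 18 from 67390717 to 67402749), a β-tubulin isotype that is scarce in the adult brain, went from 12.4, 13.8 and 8.89 CPM to 20.1, 16.7 and 25.4 CPM. Its rise was 0.82 on the log2 scale (standard error 0.21, edgeR adjusted p = 0.0197). Among the 4 called genes with at least 10 reads in every library, this rise was the least secure. The adjusted p was 0.0568 without control replicate 1, 0.0615 without control replicate 3 and 0.0558 without L-DL KD replicate 3, and the direction stayed. Socs3 and Tubb6 ordered the labelled libraries alike, replicate 3 highest and replicate 2 lowest.

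Jun (ENSMUSG00000052684, chromosome 4 from 95049034 to 95052222), the AP-1 subunit through which axon damage acts on transcription, had 124, 129 and 112 CPM in the controls and 158, 199 and 188 CPM in the libraries labelled L-DL KD. Every labelled library exceeded every control. The rise was the smallest of the 5, at 0.58 on the log2 scale (standard error 0.10, 95% interval 0.35 to 0.80, edgeR adjusted p = 0.00412). Jun shares 232 exon bases with the antisense gene Junos, and the sources used here do not say whether reads were counted by strand. Junos itself was at 31 to 38 reads in every library, with a log2 fold change of -0.09 (edgeR adjusted p = 0.814).

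**Figure D2:**
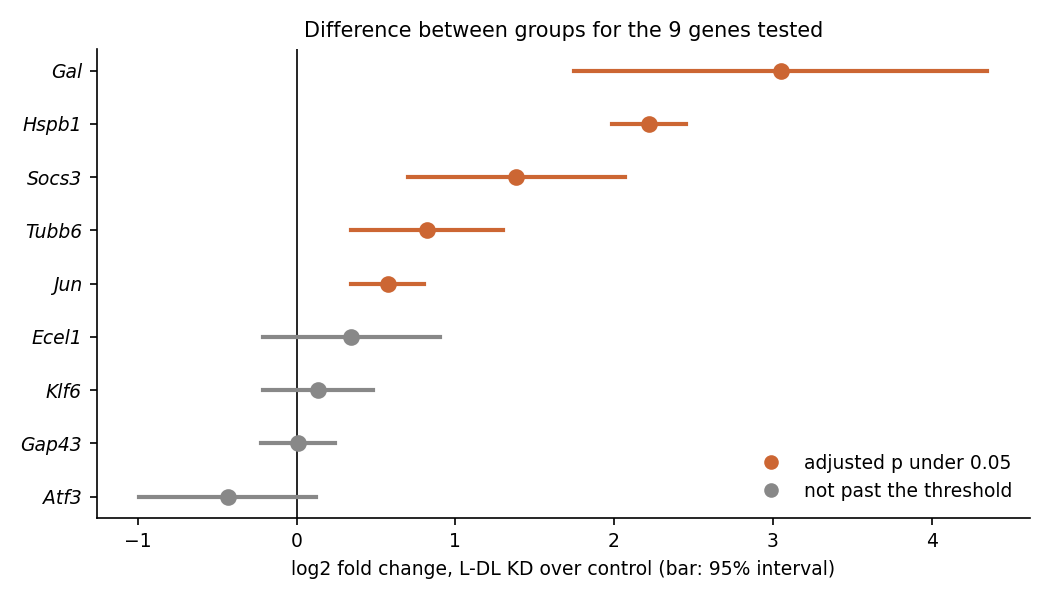
Log2 fold change of the libraries labelled L-DL KD over the controls (horizontal axis) for the 9 tested genes, with 95% intervals as bars and genes past an adjusted p of 0.05 in orange. The intervals of Hspb1, Gal, Socs3, Tubb6 and Jun lie above 0, and those of Ecel1, Klf6, Gap43 and Atf3 include it. Gal was tested because of its reads in a single group.

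Atf3 (ENSMUSG00000026628, chromosome 1 from 191170296 to 191218039), the factor most often used to mark an injured neuron, did not pass the test. It stood at 17.4, 27.3 and 14.4 CPM in the controls and at 11.96, 15.2 and 16.6 CPM in the libraries labelled L-DL KD, and the groups overlapped. The log2 fold change was -0.43 (standard error 0.24, edgeR adjusted p = 0.215), with a 95% interval from -0.99 to 0.12. The upper bound of this interval lies below the lower bound for Jun, but the difference between both genes was not itself tested. Control replicate 2 held the highest level. Without it the log2 fold change was -0.12 (edgeR adjusted p = 0.686).

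Klf6 (ENSMUSG00000000078, chromosome 13 from 5861482 to 5870394) had 52.8, 54.0 and 49.1 CPM in the controls and 42.8, 63.6 and 64.5 CPM in the libraries labelled L-DL KD. L-DL KD replicate 1 lay below all controls while replicates 2 and 3 lay above them. Over all 6 libraries the log2 fold change was 0.13 (standard error 0.15, edgeR adjusted p = 0.542). Without L-DL KD replicate 1 it was 0.30 with an edgeR adjusted p of 0.0123, so that 1 library decided this call.

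Gap43 (ENSMUSG00000047261, chromosome 16 from 42248442 to 42340651), which adult hippocampal neurons make without any injury, was at nearly equal levels in both groups. The controls had 121, 102 and 100 CPM and the libraries labelled L-DL KD 120, 104 and 101 CPM. The log2 fold change was 0.01 (standard error 0.10, edgeR adjusted p = 0.956), and its 95% interval from -0.22 to 0.24 lies below that of Jun, though the difference between both genes was not itself tested.

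Ecel1 (ENSMUSG00000026247, chromosome 1 from 87147655 to 87156521), a neuronal endopeptidase induced by nerve injury, had 12.4, 8.35 and 6.41 CPM in the controls and 9.92, 13.2 and 11.4 CPM in the libraries labelled L-DL KD. Values overlapped, and the log2 fold change of 0.34 (standard error 0.24, 95% interval -0.21 to 0.90, edgeR adjusted p = 0.322) did not pass the test.

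Sprr1a (ENSMUSG00000050359, chromosome 3 from 92483952 to 92485895) was too low to judge. It had 2, 0 and 1 reads in the controls and 8, 11 and 5 reads in the libraries labelled L-DL KD, and only 1 library reached 10 reads. Scaled for depth, the summed counts of 3 and 24 give a ratio of 7.42 with a 95% counting interval from 2.25 to 38.5 (exact binomial, counting error only).

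Scaled to exon length, so that genes can be set side by side, the order of the levels differed between the groups at its top. In the controls Gap43 led with 70.8 ± 7.76 CPM per kb (SD, n = 3), followed by Jun at 38.3 and Hspb1 at 33.4 CPM per kb, whose libraries overlapped each other. Klf6, Atf3, Socs3 and Tubb6 followed with 11.8, 9.14, 6.25 and 4.81 CPM per kb, each overlapping the next. Ecel1 was at 2.59, Gal at 0.233 and Sprr1a at 0.0772 CPM per kb. In the libraries labelled L-DL KD, Hspb1 stood first with 156 ± 12.6 CPM per kb (SD, n = 3), clear of Gap43 at 71.3 and Jun at 57.0 CPM per kb. Socs3 moved ahead of Klf6, at 16.3 and 13.0 CPM per kb, but both overlapped in their libraries, as did Klf6 with Tubb6 and Tubb6 with Atf3.

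The 10 genes did not all rank the libraries alike, and whether they varied together was not tested. L-DL KD replicate 3 was the highest of its group for Hspb1, Socs3, Tubb6, Klf6 and Atf3, replicate 2 for Jun, Ecel1 and Sprr1a, and replicate 1 for Gal and Gap43. Control replicate 3 was the lowest control for 7 of the 10 genes. Microglial markers were lowest in the same control, at 0.865 times the control mean, and its choroid plexus markers were at 2.05 times that mean.

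To show what stands ahead of some of these genes, the bases before the RefSeq transcription start (GRCm38.p6) are given in the gene's direction, without bases that GENCODE places in an exon. A RefSeq promoter window was matched for 8 of the 10 genes, all except Gap43 and Tubb6. Capitals mark 4 motifs, searched on both strands in the 250 bases before the start, namely TGANTCA (AP-1), TGACATCA (the ATF/Jun element through which Jun binds its own promoter), GAANNTTC (the core of a heat shock element) and TTCNNNGAA (STAT). Hspb1 (chr5:135887669-135887918, plus strand), Jun (chr4:95052223-95052472, minus strand) and Socs3 (chr11:117969452-117969616, minus strand) are shown as genes that rose. The Socs3 window lies inside the GENCODE span of the gene given above, since the RefSeq start lies further in, so it is not the sequence ahead of the whole gene. Klf6 (chr13:5861239-5861481, plus strand) is shown as a gene that carries the Jun element and did not pass the test, and Sprr1a (chr3:92485896-92486131, minus strand) as the only one with AP-1 letters.
Hspb1: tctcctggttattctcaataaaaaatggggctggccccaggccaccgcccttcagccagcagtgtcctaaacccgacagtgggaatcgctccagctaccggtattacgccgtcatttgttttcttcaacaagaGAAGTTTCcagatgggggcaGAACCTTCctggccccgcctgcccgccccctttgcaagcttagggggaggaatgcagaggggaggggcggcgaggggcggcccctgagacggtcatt
Jun: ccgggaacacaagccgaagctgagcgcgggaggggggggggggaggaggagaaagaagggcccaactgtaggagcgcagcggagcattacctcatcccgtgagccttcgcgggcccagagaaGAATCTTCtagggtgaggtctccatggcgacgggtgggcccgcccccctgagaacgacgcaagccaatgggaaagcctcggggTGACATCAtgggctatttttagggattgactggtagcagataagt
Socs3: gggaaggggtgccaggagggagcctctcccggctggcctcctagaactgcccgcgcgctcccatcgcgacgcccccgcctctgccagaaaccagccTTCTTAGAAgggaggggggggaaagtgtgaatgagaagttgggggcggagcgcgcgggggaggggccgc
Klf6: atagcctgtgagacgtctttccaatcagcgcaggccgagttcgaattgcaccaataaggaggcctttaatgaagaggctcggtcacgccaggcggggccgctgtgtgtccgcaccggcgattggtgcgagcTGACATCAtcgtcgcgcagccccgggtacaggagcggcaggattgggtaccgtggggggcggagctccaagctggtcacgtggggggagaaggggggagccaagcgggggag
Sprr1a: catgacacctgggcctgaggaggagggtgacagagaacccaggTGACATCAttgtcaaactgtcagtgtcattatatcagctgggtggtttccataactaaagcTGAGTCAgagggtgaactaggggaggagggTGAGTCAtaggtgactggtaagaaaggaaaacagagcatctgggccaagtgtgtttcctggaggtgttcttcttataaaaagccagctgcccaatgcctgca
GAANNTTC occurred at 2 places ahead of Hspb1, beginning 117 and 97 bases before the start, and at 1 place ahead of Jun, 128 bases before it. These letters are present in 6.69% of all 32851 promoter windows of the same length. TGACATCA was found ahead of Jun, Klf6 and Sprr1a, beginning 45, 119 and 207 bases before the start, and in 2.93% of all windows. TTCNNNGAA was found ahead of Socs3 only, 154 bases before the start, with a share of 7.02% over all windows. Sprr1a carried TGAGTCA at 146 and 116 bases before the start, where 6.75% of windows have TGANTCA. The full cAMP response element TGACGTCA was in 0 of the 8 windows and in 1.55% of all windows. None of the searched motifs was found in the windows of Gal, which was also called higher, Atf3 and Ecel1, and these windows are not shown. Letters of this kind describe the window and do not show that a factor was bound there.

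Other genes of the injury and regeneration programme were read from the same fit. Of 105 such genes in 9 groups, 97 were tested, and 29 rose and 19 fell. These are 29.9% and 19.6% of the tested ones, beside the 15.6% and 15.0% over all genes, and their median log2 fold change was 0.16. The shares over all genes apply equally to the count of each group and marker list below. The risen genes include Hspb3, which passed the filter only through the libraries labelled L-DL KD.

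Genes of the stress kinases that carry the axonal signal to Jun, taken with axon survival genes, fell more often than they rose. Of 11 genes, 1 rose and 6 fell, with a median log2 fold change of -0.27. Mapk10, the neuronal JNK3, fell by 0.66 on the log2 scale (standard error 0.08, edgeR adjusted p = 0.00117), Map2k4 fell by 0.48 (adjusted p = 0.00145) and Map3k12, the dual leucine zipper kinase DLK, fell by 0.41 (adjusted p = 0.00617). Map2k7, the other kinase that activates JNK, rose by 0.48 (adjusted p = 0.00362). Markers of neurons fell in the same libraries, with 8 of 9 called lower and Nefl called higher, and their summed level went from between 5968 and 6380 CPM in the controls to between 3856 and 4693 CPM in the libraries labelled L-DL KD. Because CPM is scaled to the library total, fewer neurons, less RNA per neuron and more RNA from other cells cannot be told apart in bulk tissue.

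Among 18 genes of gp130 cytokine signalling, the pathway that Socs3 closes, 16 were tested, 4 rose and 0 fell. Il6st, which encodes gp130 itself, rose by 0.53 on the log2 scale (standard error 0.07, edgeR adjusted p = 0.00136), the interleukin-6 receptor gene Il6ra 2.15-fold (adjusted p = 0.00563) and the oncostatin M receptor gene Osmr by 0.49 (adjusted p = 0.0291). Stat3, the factor downstream of gp130, had a log2 fold change of 0.12 (adjusted p = 0.481). The ligand genes Il6 and Cntf were too low to test, at 1 to 9 and 1 to 16 reads. The number of called genes was 2 without any 1 of the controls or without L-DL KD replicate 3, and 7 without L-DL KD replicate 1. Osmr lost its call when any library other than L-DL KD replicate 1 was left out.

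Partners of Jun and Atf3 moved unevenly, with 5 of 16 genes risen and 2 fallen. Fos, Junb and Jund, with which Jun forms AP-1, had log2 fold changes of -0.08, 0.02 and 0.16 and none passed the test (edgeR adjusted p = 0.756, 0.933 and 0.432). Atf5 rose by 0.59 (adjusted p = 0.00415), Cebpd by 0.91 (adjusted p = 0.00674) and Batf3 by 0.95 (adjusted p = 0.0226). Atf2, which pairs with Jun on the TGACATCA element, fell by 0.55 (adjusted p = 0.00113), and the activity-linked Fosb fell by 1.24 on the log2 scale (adjusted p = 0.0171). Batf3 and Fosb lost their calls without control replicate 1 or 3 or L-DL KD replicate 2, and Batf3 also without L-DL KD replicate 3 or without both choroid-high libraries. The number called was 3 without control replicate 1 or 3 and 4 without L-DL KD replicate 2, against 7 over all libraries.

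Of 7 other transcription factors tied to regeneration, 2 rose and 1 fell, or 28.6% and 14.3%, beside 15.6% and 15.0% over all tested genes. Klf7, which favours axon growth as Klf6 does, rose by 0.47 on the log2 scale (edgeR adjusted p = 0.00426) and Rest, a repressor of neuronal genes, by 0.40 (adjusted p = 0.0424). Klf9, a brake on axon growth, fell by 0.58 (adjusted p = 0.00485). Rest lost its call when any library other than L-DL KD replicate 2 was left out, without both choroid-high libraries and without the count filter.

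Growth cone and cytoskeleton genes, the group of Gap43 and Tubb6, moved most often and in both directions. Of 17 genes, 7 rose and 8 fell. Marcks, a membrane-bound regulator of actin that microglia also make, rose by 0.92 on the log2 scale (standard error 0.07, edgeR adjusted p = 0.000170), Stmn4, a stathmin of microtubules, by 0.97 (adjusted p = 0.000250) and the α-tubulin Tuba1a by 0.67 (adjusted p = 0.000300). Dpysl2, which encodes the collapsin response mediator CRMP2, fell by 0.69 (adjusted p = 0.000494), Nrn1, the neuritin gene, fell by 0.66 (adjusted p = 0.000554) and Basp1, a growth cone protein related in function to Gap43, fell by 0.63 (adjusted p = 0.00362). The part of the lower neuronal and higher microglial marker levels in these changes was not tested.

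Peptides, receptors and trophic factors included the receptors of galanin. Galr2 had a log2 fold change of 0.22 (edgeR adjusted p = 0.677) and Galr3 of 0.80 (adjusted p = 0.174), while Galr1 was too low to test at 5 to 17 reads. Without L-DL KD replicate 1, Galr3 reached 1.11 with an adjusted p of 0.0268. The glial cell line-derived factor receptor genes Gfra1 and Ret rose by 0.51 (adjusted p = 0.00253) and 0.94 (adjusted p = 0.0183), and the neurotensin gene Nts fell by 1.22 on the log2 scale (adjusted p = 0.0221). In all, 2 of 10 tested genes rose and 1 fell, or 20% and 10%, near the 15.6% and 15.0% over all tested genes. Ret and Nts lost their calls without control replicate 1 or 3 or L-DL KD replicate 2, and Nts also without both choroid-high libraries. The number called was 1 without control replicate 1 or 3 and 5 without L-DL KD replicate 3 or with DESeq2.

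The group with the highest median, 0.95 on the log2 scale, was that of other injury effectors, in which 5 of 11 tested genes rose and 1 fell. Anxa2, an annexin of membranes, rose by 1.54 (standard error 0.09, edgeR adjusted p = 8.38e-05). The growth arrest genes Gadd45a and Gadd45g rose by 1.89 (adjusted p = 0.00124) and 1.59 (adjusted p = 0.00127). Cacna2d1, a calcium channel subunit, fell by 0.34 (adjusted p = 0.0274), a call that was lost without any 1 of the controls or L-DL KD replicate 2.

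The relatives of Ecel1 and Hspb1 made up the remaining groups. Of 5 endothelin converting enzyme and neprilysin family genes, 4 were tested and Ece1 alone rose, by 0.44 on the log2 scale (edgeR adjusted p = 0.0176), a call that was lost without control replicate 2 or 3 or without both libraries highest in choroid plexus markers. Of 8 genes for small heat shock proteins and their regulator Hsf1, 5 were tested and Hspb8 and Hspb3 were called higher, the latter tested only through the group where it was high. Hspb8, which works with the co-chaperone Bag3, rose by 0.62 (standard error 0.08, adjusted p = 0.000949), a smaller change than that of Hspb1. Hspb3 had 0, 4 and 3 reads in the controls and 25, 18 and 10 in the libraries labelled L-DL KD (adjusted p = 0.0232). Its call was lost without control replicate 3, L-DL KD replicate 2 or both choroid-high libraries. Cryab, which at 114 CPM per kb in the controls was the highest of this group, and Hsf1 had log2 fold changes of 0.04 and 0.01 (adjusted p = 0.727 and 0.971).

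**Figure D3:**
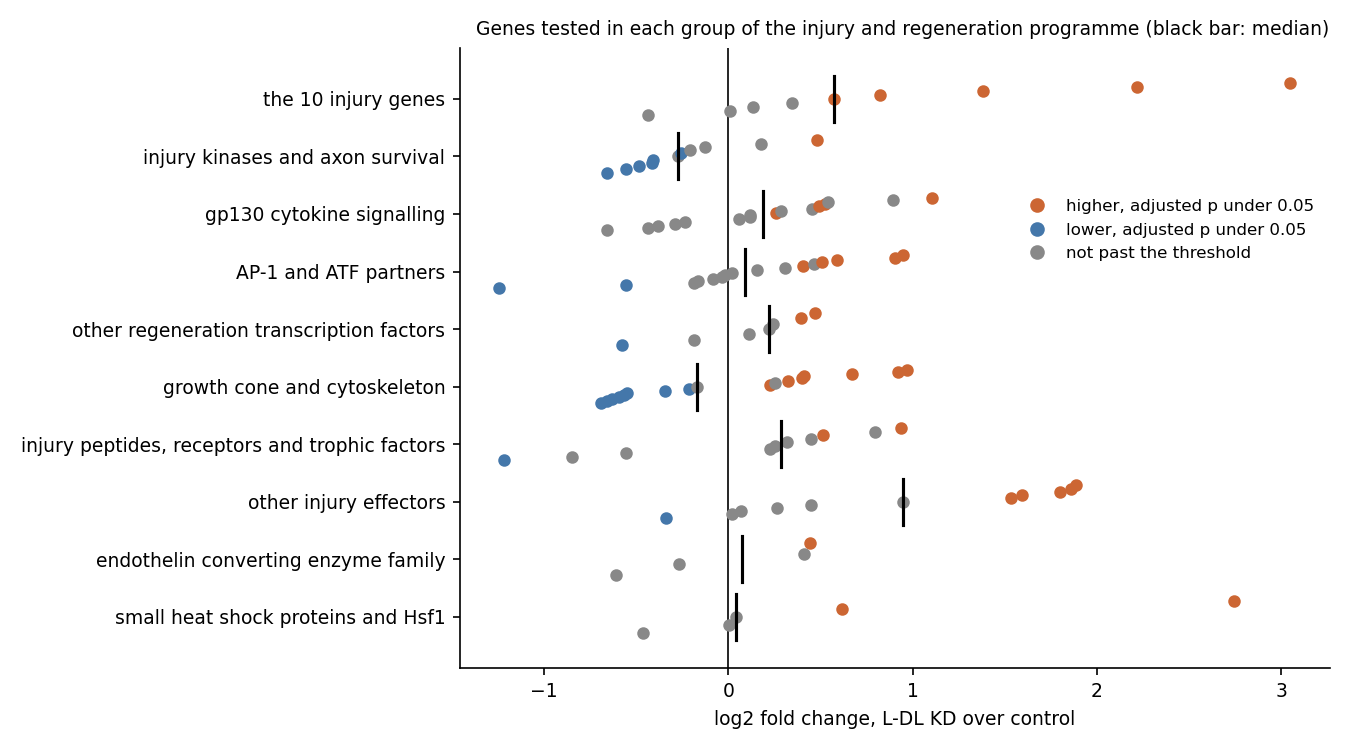
Log2 fold change of the libraries labelled L-DL KD over the controls (horizontal axis) for every tested gene, with 1 dot per gene, by group of the programme. Orange and blue mark genes called higher and lower at an adjusted p under 0.05, grey the rest, and a black bar the median, which ran from -0.27 for the kinases to 0.95 for the other effectors.

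Markers of several cell types moved with the groups. Of 12 microglial markers, 12 rose, and their summed level was between 1270 and 1580 CPM in the controls and between 2691 and 3497 CPM in the libraries labelled L-DL KD. Endothelial markers rose in 3 of 8 cases, from a sum of 294 to 326 CPM to one of 375 to 462 CPM. CA1 pyramidal cell markers fell in 3 of 6 and dentate granule cell markers in 3 of 7, with sums of 454 to 535 and 466 to 525 CPM in the controls and of 316 to 375 and 421 to 444 CPM in the libraries labelled L-DL KD. Among astrocyte markers 1 of 8 rose and 4 fell, and the sum went from between 7897 and 8042 CPM to between 6143 and 7232 CPM. Oligodendrocyte markers (1 of 8 higher), choroid plexus markers (0 of 6 called) and lymphocyte markers (0 of 6 called) had sums that overlapped between the groups. Every list had all its markers above 0 in some library. The part of these cell types in the rise of Hspb1, Socs3, Tubb6 and Jun was not tested.

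Set against the mean of the controls, Hspb1 lay higher than any summed marker list in each library labelled L-DL KD, at 4.29 to 5.04 times that mean, beside 1.83 to 2.38 times for the microglial sum and 1.20 to 1.47 times for the endothelial sum. Jun lay at 1.30 to 1.63 times, Tubb6 at 1.43 to 2.17 times and Socs3 at 1.66 to 3.70 times the control mean. Within the labelled group, Hspb1 and the microglial sum had the same order, lowest in replicate 1 and highest in replicate 3.

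**Figure D4:**
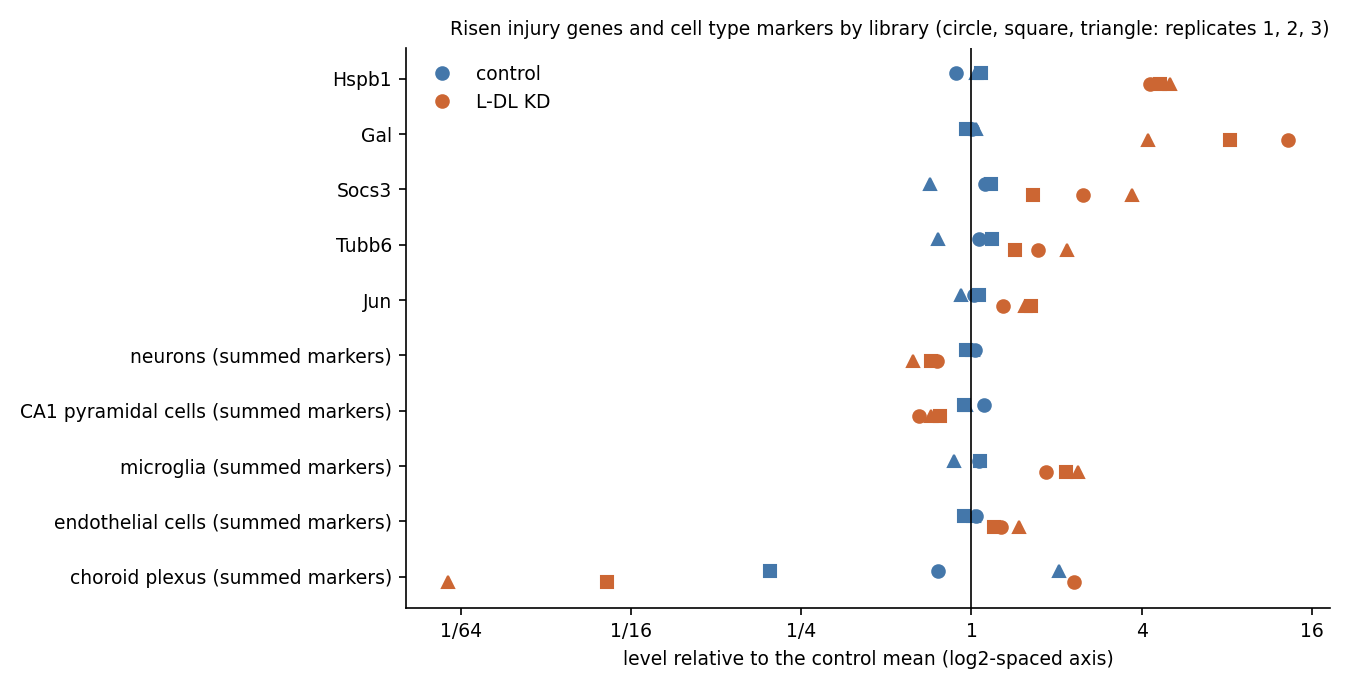
Level in each library relative to the control mean (horizontal axis, log2-spaced) for the 5 genes that rose and for the summed markers of 5 cell types or tissues, with controls in blue and libraries labelled L-DL KD in orange. Neuron and CA1 sums lie below 1 and microglial and endothelial sums above 1 in all 3 labelled libraries, while the choroid plexus sum spreads widely within both groups.

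The genes whose levels ran most closely with 3 of the injury genes over the 6 libraries were found by Pearson's r of log2 CPM. For Jun they were the interferon-induced Mx1 (r = 0.998), Fam111a (r = 0.998) and Polr2a (r = 0.998), and 641 tested genes passed an r of 0.95. For Atf3 they were Wnt2b (r = 0.993), Umps (r = 0.983) and Kcnh5 (r = 0.981), with 24 genes past 0.95. For Gap43 they were Gga1 (r = 0.990), Hcn2 (r = 0.987) and Ndufaf2 (r = 0.982), with 14 genes past 0.95. Each value rests on 6 points that share their libraries and, for Jun, the difference between the groups, and describes likeness in pattern alone.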

How the data were processed

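The 6 libraries were made from hippocampal mRNA and read as pairs of 150 nt. The counts the authors deposited are whole reads for each Ensembl gene, with no normalization. The submitters' processing notes name HISAT2 (version 2.1.0), HTSeq (version 0.6.1), Bowtie (version 1.1.2) and mm10, and the paper names GRCm38. Whether counting used strand is not given in the sources used here. The deposited rMATS table lists 5 exon skipping events in Gap43, Klf6 and Ecel1. Its values were not used, because its header does not say which group is which, and its p-values and differences are the authors' own comparison.

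Symbols were matched through GENCODE M21 (52403 of 52550 identifiers had one), which also gave positions and the length of merged exons. After TMM scaling, edgeR's quasi-likelihood test (edgeR version 4.0.16, R version 4.3.3) was run on the 17621 genes that reached 10 reads in 3 or more libraries, with Benjamini-Hochberg adjustment and a threshold of 0.05. The test was checked on simulated data, where it called 67% of 200 genes changed by 1 on the log2 scale among 17346. Tables were made in Python (version 3.11.15). Intervals of fold changes use the standard error and the t quantile of edgeR's fit, and counting intervals cover counting error only. Depth was close to even between libraries, so genes with few reads limit the precision.

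The genes and lists were chosen with earlier results of these data known. Named list genes are up to 3 called in each direction by smallest adjusted p, direct partners of the injury genes, and the 3 genes most like Atf3, Jun and Gap43. The alternatives left out libraries, added a replicate block, changed the filter, scaled to library size alone or used DESeq2 (version 1.42.0). Pairs of replicates differed by more than sampling noise (chi-square over degrees of freedom 7.49 to 33.7).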

Additional observations from a re-analysis of the deposited data

How the results depend on the processing

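Over all genes, 3492 to 6520 were called when 1 library was left out, against 5379, with the fewest (3546, 3553 and 3492) without control replicate 1, 2 or 3 and the most without L-DL KD replicate 1. With scaling by library size, 56.1% of called genes were higher, against 51.0% with TMM. The number of injury genes called was 4 to 6, against 5 over all libraries, with Gal counted wherever it was tested. Hspb1, Socs3 and Jun stayed past the threshold under every alternative. Tubb6 lost its call without control replicate 1 or 3, without L-DL KD replicate 3 and with the replicate block. Gal met the filter only through the group where it was high, so its calls say nothing of stability, and it was not tested with the filter of 50 counts. The replicate numbers did not pair the libraries (correlations of deviations 0.0535, 0.127 and -0.107). With the replicate block 4635 genes were called, and 4 injury genes, namely Hspb1, Socs3, Jun and Gal. Tubb6 had an edgeR adjusted p of 0.0523 there. The block also ended the calls of Osmr, Batf3, Rest, Nts, Cacna2d1 and Hspb3. The log2 fold change of Gap43 ran from -0.070 to 0.10, of Hnrnpdl from -0.13 to 0.15, of Fos from -0.29 to 0.043, of Junb from -0.14 to 0.13 and of Galr2 from -0.23 to 0.49 with a library left out, none past the threshold. Without both libraries highest in choroid plexus markers, chosen after seeing the data, it was -0.12 for Gap43, -0.16 for Hnrnpdl and -0.058 for Junb. Of 31 named genes of the other groups, 22 kept their call under every alternative that tested them and 0 reversed. Osmr, Batf3, Fosb, Rest, Ret, Nts, Cacna2d1, Ece1 and Hspb3 lost theirs under some. The cause was not tested. Sprr1a has no value to compare across settings, because it was tested only without the filter. The comparison of splicing events in these genes and its alternatives were not run, since the groups of that table are not named. Few reads limit Gal, Sprr1a and Hspb3.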
